A study of Mus musculus with 6 samples.

Results

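The BMP genes examined were 2 receptors, 3 ligands, 4 target genes and 1 antagonist, 10 genes of the 55401 in the deposited count table, chosen by name from mouse gene symbols as genes of BMP signalling, with earlier results of these data known. They are the ligands Bmp2, Bmp4 and Bmp6, the receptors Bmpr1a and Bmpr2, the target genes Id1, Id2, Id3 and Smad6, and the secreted antagonist Grem1. All 10 symbols were matched to an Ensembl gene of the table. RNA-seq had been done on C3H10T1/2 cells, a mouse mesenchymal line that can become bone, fat or cartilage cells. Cells carrying a control hairpin (shControl), a hairpin against Nfib (shNFIB) or a hairpin against Kmt2a, the gene of MLL1 (shMLL1), were sampled untreated at confluence (day 0). The same 3 lines were sampled again at day 7 in osteogenic medium with dexamethasone at 0.1 µM, ascorbic acid 2-phosphate at 100 µg/mL and β-glycerophosphate at 20 mM. Each of the 6 conditions is 1 library, all 3 lines express a hairpin, and whether a line is 1 clone or a pool is not given in the sources used here. The study also asked whether added BMP2 protein could restore bone formation in the knockdown cells, and the 6 libraries give the state of the endogenous BMP genes in those cells without added BMP2.

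BMP ligands are secreted dimers that bring together type I receptors, such as BMPR1A, and type II receptors, such as BMPR2. The activated type I receptor phosphorylates SMAD1, SMAD5 and SMAD9, which enter the nucleus with SMAD4 and raise the transcription of Id genes and of the inhibitory Smads, so that Id1, Id2, Id3 and Smad6 are commonly read as outputs of the pathway. ID proteins bind basic helix-loop-helix factors and keep them from DNA, SMAD6 feeds back on the receptors, and GREM1 binds BMP2 and BMP4 outside the cell. In mesenchymal cells BMP signalling promotes bone formation.

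Promoter sequences from RefSeq (GRCm38.p6, 250 bases before to 50 after the start) were found for 8 of the 10 genes, and Bmp2 and Id1 had no entry in the table used. Shown here, on the strand of the gene, are the stretches from 250 bases before the RefSeq start to the first base in an annotated exon or to the start, for the members that an edgeR test called, Grem1 and Smad6, and for Id2, the target with the widest range. The Id2 stretch lies inside the gene as GENCODE M21 draws it, which has a further exon upstream. Capitals mark GGCGCC, the core of a GC-rich element bound by BMP Smads, and GNCGNCNNNNNGTCT, a Smad1 and Smad4 element of BMP-responsive genes, both searched on both strands.
Grem1, chr2:113758649-113758898, minus strand: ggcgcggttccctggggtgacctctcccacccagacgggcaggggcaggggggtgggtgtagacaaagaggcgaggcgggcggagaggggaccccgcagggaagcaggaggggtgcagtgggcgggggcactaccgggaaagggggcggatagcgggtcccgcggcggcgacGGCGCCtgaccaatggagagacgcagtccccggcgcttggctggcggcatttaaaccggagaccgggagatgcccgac
Smad6, chr9:64022060-64022309, minus strand: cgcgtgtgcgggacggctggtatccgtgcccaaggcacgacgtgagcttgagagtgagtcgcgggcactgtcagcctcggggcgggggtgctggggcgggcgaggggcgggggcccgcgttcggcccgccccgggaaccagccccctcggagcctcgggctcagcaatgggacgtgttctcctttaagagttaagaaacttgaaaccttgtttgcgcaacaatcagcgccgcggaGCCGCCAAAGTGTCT
Id2, chr12:25096254-25096342, minus strand: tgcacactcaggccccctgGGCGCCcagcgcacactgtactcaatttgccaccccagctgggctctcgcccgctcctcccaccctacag
GGCGCC occurred in 4 of the 8 promoters (Bmpr1a, Bmpr2, Id2 and Grem1) and in 11.9% of all 32851 promoters of the same length. The longer element occurred in Smad6 and Bmp6 and in 0.667% of all promoters. The letters TTGGCA, one arm of the site bound by NFI proteins such as NFIB, were in none of the 8 windows and in 14.1% of all promoters. The full palindrome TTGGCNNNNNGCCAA was in none of them either and in 0.0365% of all. CpG dinucleotides numbered between 12 (Bmp4) and 48 (Bmpr1a) per window, against a median of 7 over all promoters. GGCGCC and the longer element both contain CG, and their shares over promoters of like CpG count are not given here. A match is a description of the letters in the window and says nothing of binding in these cells.

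The libraries held between 21608680 and 34774066 counts, so that 3 counts correspond to between 0.0939 and 0.123 CPM, the depth-scaled unit of counts used here after TMM scaling. CPM values are comparable between libraries for 1 gene, and levels are given per kilobase of exon where genes are compared. In the targeting check, Nfib stood at 116 and 83.5 CPM in shControl at day 0 and day 7 and at 35.3 and 8.15 CPM in shNFIB, and Kmt2a stood at 74.7 and 66.3 CPM in shControl and at 30.9 and 34.8 CPM in shMLL1. Nfib was also lower in shMLL1 at day 0, at 65.5 CPM, than in shControl. All 10 mesenchymal markers were above 3 counts in every library, while Ibsp, a late osteoblast marker, was listed at 0. In bulk RNA, fewer cells of a type and less RNA per cell cannot be told apart.

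Of the ligands, only Bmp4 was clearly present. Bmp2 (chr2:133552159-133562885) was listed at 0 counts in all 6 libraries, which with an exact Poisson 95% interval allows up to between 0.115 and 0.151 CPM. Bmp6 (chr13:38345107-38500302) had between 1 and 6 counts a library, too few for any comparison. Bmp4 (chr14:46383520-46390669), a ligand of bone and fat precursors, had 35.7 CPM in shControl at day 0 and 94.3 CPM at day 7. It had 32.0 and 34.8 CPM in shNFIB and 37.2 and 49.99 CPM in shMLL1. The day 7 library of shControl was the highest, and the other 5 libraries lay between 32.0 and 49.99 CPM. At day 0 the 3 lines were close, with shMLL1 and shControl within counting error of each other.

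The change of Bmp4 with osteogenic medium was 2.64-fold in shControl (log2 fold change 1.40, 95% counting interval 1.303 to 1.503), 1.09-fold in shNFIB (0.12, −0.00 to 0.25) and 1.34-fold in shMLL1 (0.43, 0.31 to 0.55). The response in shNFIB was thus lower on the log2 scale than in shControl (difference −1.28, interval −1.440 to −1.121) and that in shMLL1 was lower by a difference of −0.98 (−1.13 to −0.82). These intervals cover counting error only, since each condition is 1 library. Summed adipocyte markers moved with Bmp4. In shControl at day 7 they reached 152 CPM in all, against 3.61 to 8.81 CPM in the other 5 libraries. In that library 7 of 8 were above 3 counts, against 2 of 8 in shControl at day 0. Adipoq, the adiponectin gene, was at 0 there, and Fabp4 did not rise in shControl (log2 fold change −0.0025). The summed osteoblast markers moved with Bmp4 too. They stood at 1555 CPM in shControl at day 7 against 253 to 355 CPM elsewhere, but 1381 CPM of that sum was Spp1. Runx2 and Dlx5 were also highest in that library, at 117 and 52.5 CPM, whereas Alpl was highest in shNFIB at day 7 (7.27 against 3.64 CPM). The part of either cell state in the Bmp4 value was not tested. Bmp4 overlaps 2 genes on the other strand, Gm15217 and Gm15222, and the strand setting of the counting is not given in the sources used here.

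**Figure D1:**
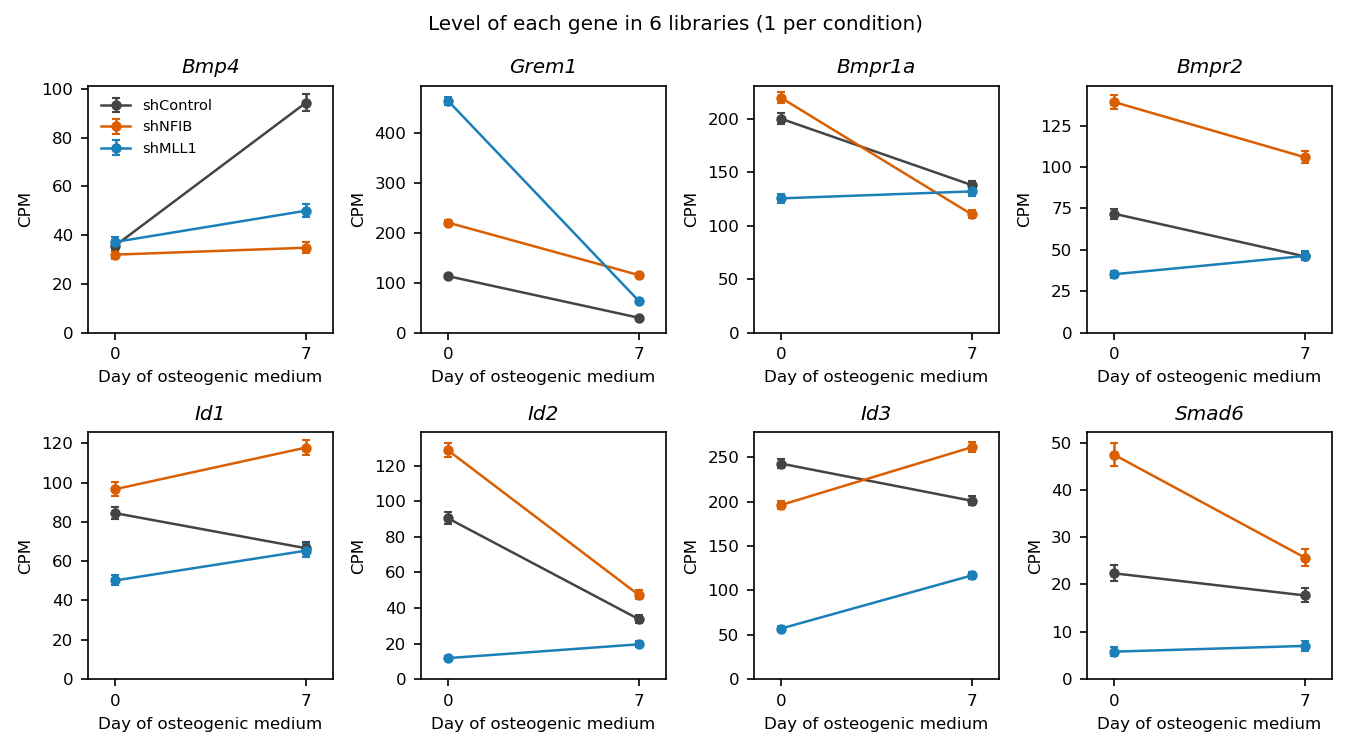
Level of each of the 8 detected genes in CPM (TMM-scaled, y axis from 0) at day 0 and day 7 of osteogenic medium, 1 point per library, with exact Poisson 95% intervals (counting error only) and lines joining the days of a line. Bmp4 was high in shControl at day 7 alone, Grem1 fell in all 3 lines, and Id2, Id3 and Smad6 were lower in shMLL1 than in the other lines on both days.

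Grem1 (chr2:113746164-113758646), the secreted antagonist, fell with osteogenic medium in all 3 lines. It had 113 CPM at day 0 and 29.7 CPM at day 7 in shControl, 220 and 115 CPM in shNFIB, and 463 and 63.4 CPM in shMLL1. This was the widest range among the detected genes, with the highest library 15.6 times the lowest. The fall was 3.80-fold in shControl, 1.91-fold in shNFIB and 7.31-fold in shMLL1. In edgeR's quasi-likelihood test of day 7 against day 0, with the line as a block, the log2 fold change was −1.91 (SE 0.37, 3 libraries a side) and the Benjamini-Hochberg adjusted p was 0.01. The adjusted p was 0.053 without the shControl libraries and 0.052 without the block, and the log2 fold change remained between −2.40 and −1.46 when 1 line was left out. Both knockdown lines held more Grem1 than shControl on each day, although the comparisons share the shControl libraries. In shNFIB the level was 1.95-fold that of shControl at day 0 and 3.88-fold at day 7, and in shMLL1 it was 4.11-fold and 2.14-fold.

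The receptors were present in every library. Bmpr1a (chr14:34410734-34503341), a type I receptor, had 200 and 138 CPM in shControl, 219 and 110 CPM in shNFIB and 125 and 132 CPM in shMLL1 at day 0 and day 7. It was the least variable gene of the set, with the highest library 1.99 times the lowest. Bmpr2 (chr1:59763400-59879014), the type II receptor, had 71.8 and 46.0 CPM in shControl, 139 and 106 CPM in shNFIB and 35.2 and 46.3 CPM in shMLL1. Both shNFIB libraries lay above the other 4 for Bmpr2, and shMLL1 at day 7 was within counting error of shControl at day 7. How many of all genes set a line apart in this way is not given here. Gm38125 overlaps Bmpr2 on the same strand and Gm17110 overlaps Bmpr1a on the other, so that some reads could belong to them.

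The 4 target genes were at their lowest in shMLL1 at day 0. Id1 (chr2:152736251-152737410) had 84.5 and 66.6 CPM in shControl, 96.7 and 118 CPM in shNFIB and 50.2 and 65.4 CPM in shMLL1 at day 0 and day 7. Id2 (chr12:25093799-25097140) had 90.3 and 33.7 CPM in shControl, 129 and 47.3 CPM in shNFIB and 11.8 and 19.5 CPM in shMLL1. Both shMLL1 libraries were below the other 4 for Id2, and for Id1 only the day 7 library of shMLL1 reached the level of another line. Id3 (chr4:136143497-136145755) had 243 and 201 CPM in shControl, 196 and 261 CPM in shNFIB and 57.0 and 117 CPM in shMLL1. Smad6 (chr9:63953076-64022059), the inhibitory Smad, had 22.4 and 17.7 CPM in shControl, 47.4 and 25.7 CPM in shNFIB and 5.80 and 7.01 CPM in shMLL1. For Id3 and Smad6 as for Id2, the shMLL1 libraries did not overlap those of shControl or shNFIB. The share of all genes that separate in this way is not given here. Smad6 rested on 175 and 171 counts in shMLL1, and these were within counting error of each other. Markers of the mesenchymal state moved between the same libraries, but not all in 1 direction. At day 0, 6 of 10 had a lower level in shMLL1 than shControl. Among these were Pdgfra (57.4 against 174 CPM), Pdgfrb (133 against 312) and Vim (1943 against 4153). The rest of the 10 were not lower. In the edgeR fit of both days, shMLL1 was above shControl for Col3a1 (log2 fold change 0.66), Ly6a (0.43) and Twist1 (0.12), none of them called. In shMLL1, 3 of the 10 were higher at day 7 than at day 0, among them Pdgfra and Pdgfrb, at 614 and 386 CPM. Vim was lower at day 7, at 1176 CPM, as were Ly6a and Thy1 (log2 fold change −2.22 and −0.94). The endothelial marker Tek had 3.02 CPM in shMLL1 and 17.7 CPM in shControl at day 0, while the other 4 endothelial markers stayed under 1 CPM. Their part in the levels of the target genes was not tested.

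Per kilobase of exon, Id3 was the most abundant gene, with a mean over the 6 libraries of 100.0 CPM per kb, followed by Id1 at 69.1. Grem1 came next at 40.3 CPM per kb, then Bmpr1a at 24.3, Id2 at 22.6, Bmp4 at 21.0, Smad6 at 6.55 and Bmpr2 at 4.12. Bmpr2, the last, has 17983 bases of exon, the most of the set. The ligand that was present was thus about as abundant per length as the type I receptor, and the spread over libraries (14.2 to 41.9 CPM per kb for Bmp4, 17.4 to 34.5 for Bmpr1a, 4.84 to 52.7 for Id2) overlapped among these 3 genes. Within a gene, 31 of the 40 neighbouring libraries in the order of levels differed beyond counting error and 9 did not. shMLL1 at day 0 was the lowest library for 5 of the 8 genes, Bmpr2, Id1, Id2, Id3 and Smad6. An shNFIB library was the highest for 6, which were these 5 and Bmpr1a. The shares of all genes with these lowest or highest libraries are not given here.

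The response to osteogenic medium was read in each line from 1 library a side. A change over 2-fold was counted among genes with at least 10 counts in 1 of the 2 libraries, with no test. In shControl 3 of the 8 genes passed it, Bmp4 upwards and Id2 (log2 fold change −1.42) and Grem1 (−1.93) downwards, where 37.9% of all 16786 genes did. In shNFIB Id2 alone passed (−1.44), against 30.5% of 16253 genes. In shMLL1 Id3 (1.04, interval 0.948 to 1.122) was higher and Grem1 (−2.87) lower by over 2-fold, against 45.6% of 17049 genes. The median log2 fold change over the 8 genes was −0.44 in shControl, −0.64 in shNFIB and 0.39 in shMLL1, beside −0.00, −0.03 and 0.04 over all genes.

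The direction of the target genes with time was not shared by the lines. In shControl all 4 were lower at day 7, by −0.34 for Id1, −1.42 for Id2, −0.27 for Id3 and −0.34 for Smad6. In shNFIB Id2 and Smad6 were lower (−1.44 and −0.88) while Id1 and Id3 were higher (0.29 and 0.41). In shMLL1 all 4 were above their day 0 level, by 0.38 for Id1, 0.73 for Id2, 1.04 for Id3 and 0.27 for Smad6, the last with an interval from −0.04 to 0.59 that includes no change. The largest gap between responses was that of Id2, for which shMLL1 exceeded shControl by 2.15 on the log2 scale (1.93 to 2.38), whereas shNFIB and shControl differed by −0.02 (−0.15 to 0.12). For Id3 the response in shMLL1 exceeded that in shControl by 1.31 (1.21 to 1.41) and for Bmpr2 by 1.04 (0.881 to 1.19). With 1 library per line and day, a model of these differences leaves no degrees of freedom and they were not tested.

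**Figure D2:**
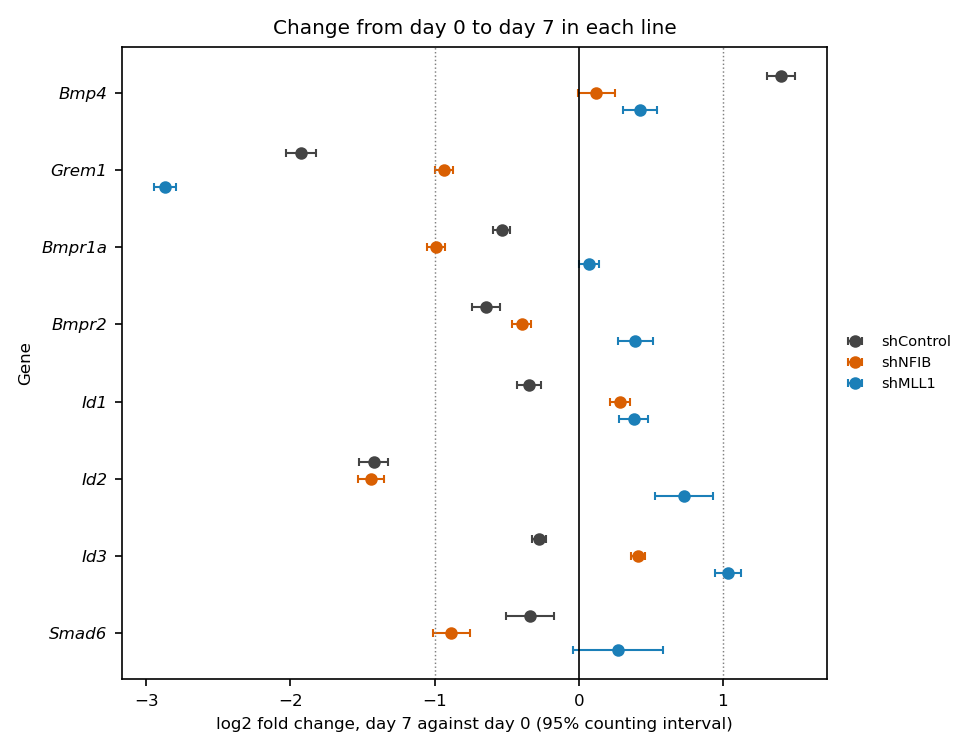
Change of each gene from day 0 to day 7 on the log2 scale (x axis) in shControl, shNFIB and shMLL1, with 95% Clopper-Pearson counting intervals and dotted lines at a 2-fold change. Grem1 lies left of 0 in all 3 lines, while Id1 and Id3 lie left of 0 in shControl and right of it in both knockdown lines.

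Over the 3 lines together, 1 of the 8 genes passed the quasi-likelihood test of the day at a false discovery rate of 5%, Grem1, where 33.3% of the 16742 genes tested did. The other 7 had adjusted p between 0.104 for Bmp4 (log2 fold change 0.65, SE 0.27) and 0.71 for Id1 (0.11, SE 0.21). Without the shMLL1 libraries 3 genes passed: Grem1, Id2 (−1.47, adjusted p 0.00193) and Bmpr1a (−0.80, adjusted p 0.0303). The share of all genes that passed in that smaller fit is not given here.

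The knockdowns were set against shControl on each day. Both knockdown comparisons of a day share the same shControl library, so that their values are given side by side and not compared with each other. At day 0 in shMLL1, 5 of the 8 genes passed 2-fold, where 20.4% of 16064 genes did. Id2 was 7.66-fold lower than in shControl (log2 fold change −2.94, interval −3.10 to −2.78), Id3 4.26-fold lower (−2.09, −2.17 to −2.02), Smad6 3.85-fold lower (−1.95, −2.19 to −1.71) and Bmpr2 2.04-fold lower (−1.03, −1.13 to −0.92). Grem1 was the gene that was higher. Id1 and Bmpr1a were also below shControl, by −0.75 and −0.67, short of 2-fold, and Bmp4 did not differ beyond counting error (0.06, −0.06 to 0.18). The median over the 8 genes was −0.89, beside −0.04 over all genes.

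At day 7 these gaps in shMLL1 were smaller. 2 genes passed 2-fold, Smad6 (−1.33, −1.59 to −1.08) and Grem1 (1.10, 0.98 to 1.22), against 15.5% of 16898 genes. Id2 and Id3 were both still below shControl, at −0.79 and −0.78. Id1 (−0.03, −0.12 to 0.07), Bmpr1a (−0.06, −0.13 to 0.00) and Bmpr2 (0.01, −0.11 to 0.12) had intervals that reach no change. Bmp4, level between these lines at day 0, was 1.89-fold lower in shMLL1 at day 7 (−0.92, −1.01 to −0.82).

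In shNFIB 1 gene passed 2-fold at day 0, Smad6, which was 2.12-fold higher than in shControl (1.08, 0.96 to 1.22), against 13.6% of 15719 genes. Grem1 (0.96) and Bmpr2 (0.96) were just below that limit. At day 7, 3 genes passed, against 21.3% of 16716. They were Grem1 (1.96, 1.85 to 2.06) and Bmpr2 (1.203, 1.111 to 1.295) upwards and Bmp4 (−1.44, −1.54 to −1.33) downwards. The 4 target genes were all above shControl at day 7, from 0.38 for Id3 to 0.82 for Id1. At day 0 Id3 was below it (−0.31).

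**Figure D3:**
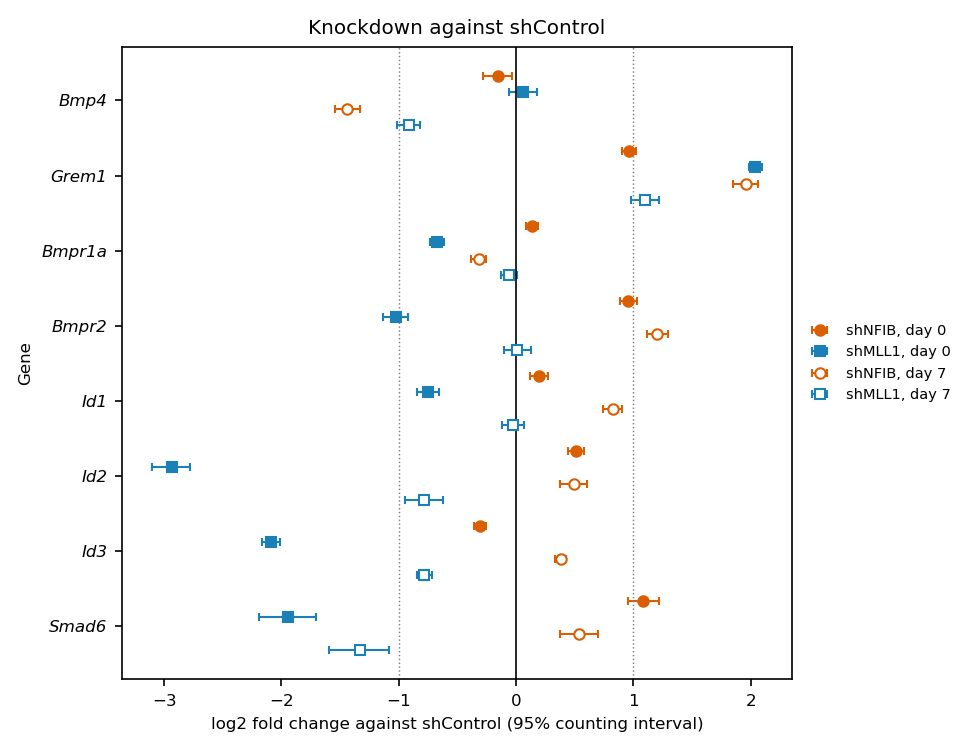
Difference of each knockdown line from shControl on the log2 scale (x axis) at day 0 (filled symbols) and day 7 (open symbols), with 95% Clopper-Pearson counting intervals and dotted lines at 2-fold. Circles are shNFIB and squares shMLL1, and every value of a day uses the same shControl library. Grem1 lies right of 0 in all 4 comparisons, and Id2, Id3 and Smad6 lie left of it in shMLL1 on both days.

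When both days of a line were tested together, with day as a term, none of the 8 genes passed for either knockdown in edgeR's quasi-likelihood test. In shNFIB 0.376% of the 16742 genes passed. An unadjusted p under 0.05 was found for 12.5% of all genes and for 4 of the 8 members: Grem1 (1.54, adjusted p 0.23), Bmpr2 (1.07, adjusted p 0.213), Smad6 (0.84, adjusted p 0.352) and Bmp4 (−0.82, adjusted p 0.38). In shMLL1 0.0299% of genes passed, 9.28% had an unadjusted p under 0.05, and the 4 members among these were Grem1 (1.65, adjusted p 0.269), Smad6 (−1.61, adjusted p 0.149), Id2 (−1.73, adjusted p 0.36) and Id3 (−1.44, adjusted p 0.23). All 4 target genes had a negative estimate in shMLL1. DESeq2's Wald test on the same counts called 4 members in shMLL1, Id2, Id3 and Smad6 as lower and Grem1 as higher, where it called 2.50% of all genes with an adjusted p. In shNFIB it called 1 member, Grem1, and 3.67% of all genes.

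The knockdown lines were then tested against each other, a comparison added after the values had been seen. Here too each side was day 0 and day 7 of 1 line, which are not replicates of a knockdown. Smad6 was lower in shMLL1 than in shNFIB by 2.45 on the log2 scale (log2 fold change −2.45, SE 0.34, 2 libraries a side, adjusted p 0.0455, quasi-likelihood test), the only member called, where 0.478% of the 16742 genes were. The lines did not overlap, with 5.80 and 7.01 CPM in shMLL1 and 47.4 and 25.7 CPM in shNFIB. For such a lack of overlap, the share over all genes is not given here. Bmpr2 (−1.56, adjusted p 0.0793), Id2 (−2.23, adjusted p 0.112), Id3 (−1.44, adjusted p 0.11) and Id1 (−0.89, adjusted p 0.143) had unadjusted p under 0.05, as 19.8% of all genes did, but missed the threshold. Scaling by library size alone ended the call of Smad6. The estimates of Bmp4 (0.35), Bmpr1a (−0.27) and Grem1 (0.11) were within about 1 SE of 0.

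Bmpr2, Id1, Id2, Id3 and Smad6 varied together over the 6 libraries. They were grouped from these same values, all with shMLL1 at day 0 lowest and an shNFIB library highest. A high correlation among them is thus partly built in. Pearson's r of their log2 CPM was between 0.707 (Bmpr2 and Id3) and 0.944 (Id2 and Smad6) over the 10 pairs. Over the other 18 pairs of members it ran from −0.797 (Bmp4 and Grem1) to 0.767 (Bmpr1a and Id2). These values are descriptive. The 6 libraries share lines and days, and with so few points between 114 and 462 of the 13037 protein-coding genes had an r over 0.9 with any given member. The genes closest in pattern were Slc25a48, Creb3l1 and Igfals for Bmp4, Dars, Pcgf5 and Prkg2 for Grem1, Gm26558, Ldb3 and Rhobtb3 for Bmpr1a, and Dtx2, Sptan1 and Gpr155 for Bmpr2. For the targets they were Gcc1, Pibf1 and Ube2r2 for Id1, Anxa6, Foxp2 and Taf9b for Id2, Rab2b, Lrch1 and Elac2 for Id3, and Fut11, Scap and Cpeb2 for Smad6, with r between 0.985 and 0.999 over the 24 pairs.

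A wider list of 51 further BMP pathway genes was read with the same fit, of which 30 were abundant enough to test. None of its 11 ligands was, and 7 of them had no more than 3 counts in any library, so that Bmp4 was the one BMP ligand tested. Of the 30, 12 passed the test of the day, 7 higher and 5 lower, where 16.8% and 16.5% of all genes tested did. The receptor Smads Smad5 (log2 fold change 1.82, SE 0.18, adjusted p 0.000978) and Smad1 (0.95, adjusted p 0.0153) rose. Smad5 went from 27.5, 27.7 and 27.8 CPM at day 0 to 94.96, 92.05 and 106 CPM at day 7 in shControl, shNFIB and shMLL1, close to the same in each line, and it overlaps Gm27271, Gm27301 and Gm27834 on its strand. Their partner Smad4 fell (−0.58, adjusted p 0.0407), as did the ubiquitin ligase Smurf2 (−0.84, adjusted p 0.0208) and the corepressor Ski (−0.61, adjusted p 0.0496).

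Among the other antagonists and modulators, the BMP-binding Chrdl1 (2.55, adjusted p 0.00878) and Nbl1 (1.62, adjusted p 0.0158) and the activin antagonist Fst (1.45, adjusted p 0.033) rose, while Crim1 (−1.22, adjusted p 0.0077) fell as Grem1 did. The type II receptor Acvr2b (1.06, adjusted p 0.0495) and the co-receptor Rgmb (0.67, adjusted p 0.0366) rose. Of 5 further targets 1 changed, Id4, which fell (−2.76, adjusted p 0.0433) from no more than 1.25 CPM and was not called by DESeq2. The median over the 30 genes was −0.33, beside 0.01 over all genes tested. No gene of the wider list passed edgeR's quasi-likelihood test of shNFIB or shMLL1 against shControl or of the knockdown lines against each other, where 8, 11 and 13 of the 30 had an unadjusted p under 0.05, against 12.5%, 9.28% and 19.8% of all genes. DESeq2 called 1 (Smurf1), 1 (Smad9) and 9 of them, against 3.67%, 2.50% and 7.13% of all genes.

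**Figure D4:**
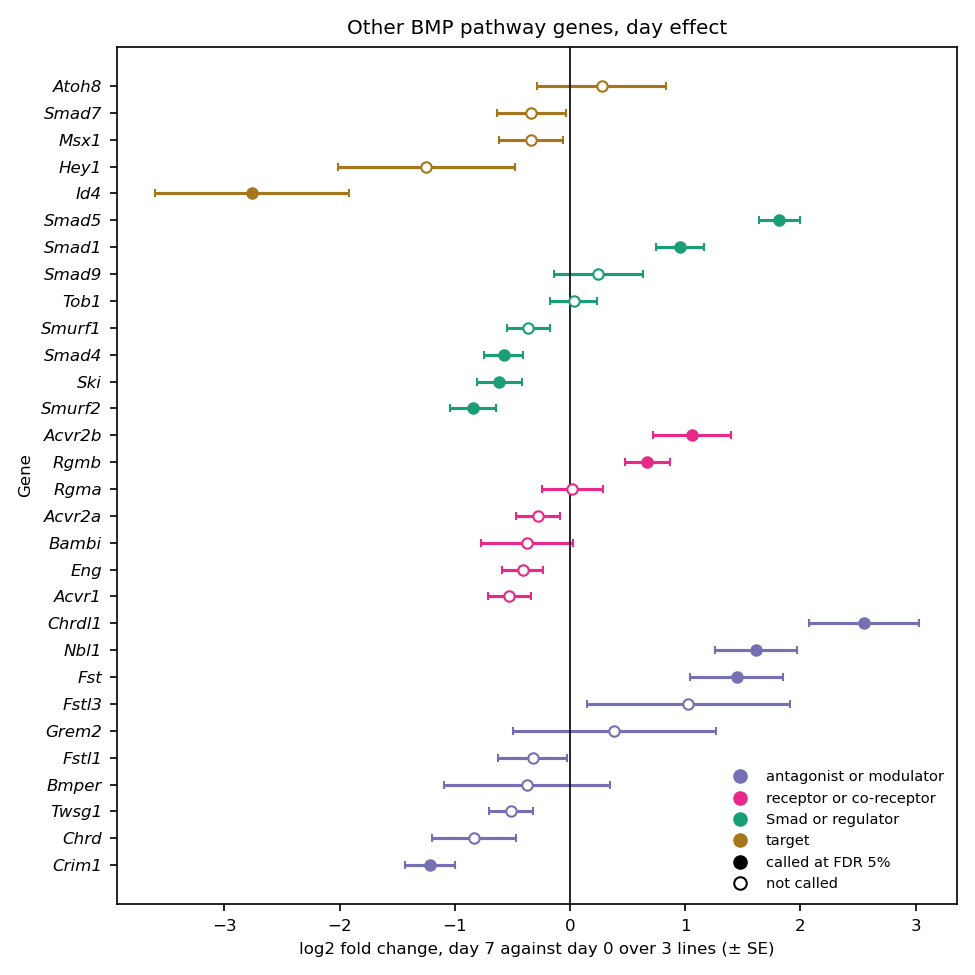
Day effect over the 3 lines for the 30 tested genes of the wider BMP pathway list, as log2 fold change with its SE from edgeR (x axis), coloured by role. Filled points passed a false discovery rate of 5%. Smad1 and Smad5 lie right of 0 and Smad4 left of it.

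In shMLL1 at day 0, genes of the wider list were low alongside Id2, Id3 and Smad6 (named here after their values had been seen, 1 library a side and no test). Atoh8, a transcription factor gene that BMPs induce in other cells, had 2.58 CPM against 34.1 CPM in shControl (log2 fold change −3.72, −4.07 to −3.39). Smad9, a receptor Smad that BMP also induces, had 1.82 CPM against 12.6 (−2.78, −3.22 to −2.37). Over 2-fold, 10 of 30 list genes were lower and 1 higher (Bmper, 2.57), beside 9.35% and 11.0% of all genes. By role, the lower genes were 5 of 10 antagonists or modulators, 3 of 5 targets, 1 of 8 Smads or regulators and 1 of 7 receptors or co-receptors. The list's median was −0.75 beside −0.04 over all genes. At day 7 Atoh8 had 12.6 CPM in shMLL1 and Smad9 5.08 CPM, while in shControl they stood at 20.8 and 11.5 CPM. As with Id2, the gap to shControl was smaller at day 7 for both. Smad7, the other inhibitory Smad, did not share the pattern at day 0, with 15.2 CPM in shMLL1 and 12.9 CPM in shControl. Nor did Msx1, another target of the list, with 6.76 CPM in shMLL1 and 6.10 CPM in shControl. By day 7 Smad7 was lower in shMLL1, at 8.03 CPM, than in shControl, at 17.9 CPM. Msx1 then had 4.55 and 5.45 CPM, with overlapping counting intervals. Of 29 list genes at day 7, 6 were over 2-fold lower in shMLL1 than in shControl and 1 higher, beside 15.5% of all genes in either direction.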

How the data were processed

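The authors trimmed paired reads of 6 RNA-seq libraries (Trimmomatic 0.39), aligned them to GRCm38 (HISAT2 2.2.1), filtered them (SAMtools 1.12), removed duplicates and counted reads per gene (HTSeq 0.11.1). Their deposited table holds unnormalized counts for each Ensembl gene, and 29043 genes had at least 1 count. The annotation release and strand setting are not given in the sources used here. No row named no gene.

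Groups came from the sample titles. Symbols, positions and exon lengths came from GENCODE M21. Counts were scaled by TMM and tested with edgeR 4.0.16 in R 4.3.3 (quasi-likelihood test, terms line and day, filterByExpr, Benjamini-Hochberg over all 16742 genes, false discovery rate 5%). Days are paired by line, since both come from the same cells. Over all genes, deviations of day 0 and day 7 from the day means correlated at 0.424 in shControl, 0.427 in shNFIB and 0.273 in shMLL1. Pairs of single libraries were compared without a test, with a prior count of 0.125, at least 10 counts in 1 library, a 2-fold limit and exact Clopper-Pearson 95% intervals. Intervals and the floor of 3 counts cover counting error only, and p-values only the spread between these libraries. Alternatives were DESeq2 1.42.0, DESeq2 size factors, library size alone, no filter on low counts or a minimum of 50, a prior count of 2, edgeR's exact test at an assumed BCV of 0.2, the fit without the block, fits of 4 libraries only and leaving out libraries. Steps were tested on simulated data. Figures were drawn with matplotlib 3.10.9.

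The members and lists were chosen with earlier results of these data known. Genes named are the 10 members, the hairpin targets, the genes of the wider list called by a test (at most 4 a direction for each role) and, for each member, the 3 protein-coding genes with the highest correlation. Others named were chosen after their values were seen. The authors' ChIP-seq was not used here.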

Additional observations from a re-analysis of the deposited data

Results flagged for a closer look

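For 5 genes the change from day 0 to day 7 had the opposite direction in a knockdown line and in shControl, beyond counting error in both lines. With 1 library per line and day the difference was not tested. The share of all genes that reverse in this way is not given here. Id3, an output of the BMP pathway, was higher at day 7 in shMLL1 (log2 fold change 1.04) and in shNFIB (0.41) and lower in shControl (−0.27). Id1 was likewise higher in shMLL1 (0.38) and shNFIB (0.29) and lower in shControl (−0.34). Id2 was higher in shMLL1 (0.73) and lower in shControl (−1.42), and so was the receptor Bmpr2 (0.39 against −0.64). Bmpr1a was barely higher in shMLL1 (0.073) and lower in shControl (−0.54), and its interval in shMLL1 (0.00 to 0.14) starts close to 0.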

How the results depend on the processing

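The limits of these values are the single library per condition and 2 residual degrees of freedom in the fit over 6 libraries. Bmp2 and Bmp6 were too low to compare at this depth. Of 611 values of single genes under an alternative, 527 kept their direction and side of the threshold, 33 passed it in addition, 3 no longer passed, 35 moved by more than counting error and 13 changed sign. Scaling by library size alone shifted pairs of libraries by −0.108 to 0.207 on the log2 scale. Causes of the changes were not tested.

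Among these alternatives, shares of all genes called are given here for DESeq2 only, and the other counts stand without such a share. For the day effect, the count of 1 member called became 0 without the replicate block that pairs the days of a line. It became 0 to 3 when 1 line was left out (0 without shControl, 3 without shMLL1). The shNFIB count of 0 became 2 with no filter on low counts, 1 with DESeq2, 2 with the 4 libraries compared alone and 0 to 1 with 1 library left out. The shMLL1 count of 0 became 4 with no filter, 4 with DESeq2, 1 with 4 libraries alone and 0 to 4 with 1 library left out (4 without shMLL1 at day 7). For shMLL1 against shNFIB the count of 1 became 0 with library size alone, 4 with no filter, 4 with DESeq2 and 1 to 4 with 1 library left out. Of genes past 2-fold, shMLL1 day 7 against day 0 gave 1 in place of 2 with DESeq2 size factors and 1 with the exact test, shNFIB at day 0 gave 0 in place of 1 under library size alone and 0 under the exact test, and shMLL1 at day 7 gave 0 in place of 2 under the exact test.

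No value that changed sign had passed a test. With 1 line or library left out, the day effect of Id1 ranged from −0.065 to 0.29. In shNFIB, Id3 ranged from −0.52 to 0.52 (0.044 without the block), Id2 from −0.14 to 1.10 and Bmpr1a from −0.48 to 0.28. In shMLL1, Bmp4 ranged from −0.97 to 0.12 and Bmpr1a from −0.75 to 0.046. For shMLL1 against shNFIB, Bmp4 ranged from −0.0076 to 0.79, Bmpr1a from −0.65 to 0.14 and Grem1 from −0.63 to 0.88.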
